A study of Homo sapiens with 12 samples.

Results

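Transcripts of 7 nuclear factors and 1 signalling inhibitor were followed through an experiment on A375 cells, a human melanoma line, as 8 genes chosen by symbol: the bZIP factors BATF2, BATF3 and CEBPD, the ETS factors ETV6 and ETV7, the regulators BCL3 and BCL6, and the cytokine signalling suppressor CISH. All 8 were found among the 4918 genes analysed here, whose symbols run from A1BG to FAM46B. RNA was sequenced from 12 samples in 4 groups of 3: cells labelled as having no treatment (control), cells given SB-3CT, an inhibitor of the gelatinases MMP2 and MMP9, cells given IFNγ, and cells given both agents (SB-3CT+IFNγ). Treatment lasted 24 h. Every group is the same A375 line, and the doses used for these samples are not given in the sources used here. The treatment notes mention vehicle without saying which samples received it. Nothing in the labels says that the 3 samples of a group came from separate cultures, so p-values measure only the spread between these samples, which may be technical.

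IFNγ binds its receptor on the cell surface and signals through the JAK-STAT pathway to early target genes, many of which carry GAS elements, short palindromic sites, in their promoters. Several of those targets are transcription factors themselves and carry the response to later genes, while members of the SOCS family, to which CISH belongs, dampen cytokine signalling. The bZIP factors bind DNA as dimers at AP-1 and related sites. In melanoma cells the response includes antigen presentation genes and PD-L1 (CD274), the ligand of the checkpoint receptor PD-1.

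Expression is given as FPKM, fragments counted relative to transcript length and library size, which allows levels to be compared between genes. Summed FPKM over the analysed genes lay between 121928 and 129692 per sample, and 3978 genes were above 0 in all 12 samples. The absolute read depth is unknown. Steps between the lowest values gave depths of 87.1% to 150.1% of the control mean, relative to one another. ERBB3, a receptor of the melanocyte lineage, stood at 29.0 to 57.8 FPKM and AXL, a receptor kinase of dedifferentiated melanoma, at 39.9 to 60.3. Other markers of the melanocyte lineage were lower, EDNRB at 4.0 to 6.81 FPKM and CDH19 at 1.55 to 5.11. Other markers of dedifferentiated melanoma lines varied, with CD44 at 68.5 to 107 FPKM, CDH2 at 6.67 to 14.9 and EGFR at 0.914 to 2.24. DCT, a pigment enzyme of the melanocyte lineage, was near 0, with 0.026 to 0.384 FPKM. The T-cell markers CD3D, CD4 and CD8A reached at most 0.179 FPKM, the epithelial marker EPCAM 0.102. Of the myeloid markers, CD14 reached at most 0.226 FPKM and CSF1R 0.434, while CD68, a lysosomal protein, stood at 19.8 to 31.6 FPKM.

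Promoter sequences from RefSeq (GRCh38.p14), with 250 bases before and 50 bases after each annotated start site, were given for 5 of the 8 genes in 6 windows. BATF2, BCL3, CISH and ETV6 have 1 window each and BCL6 has a pair. BATF3, CEBPD and ETV7 are named only. Each window was searched for the GAS letters TTCNNNGAA, the core of the interferon-stimulated response element (GAAA, any 2 bases and GAAA again) and the AP-1 letters TGANTCA. The GAS and AP-1 letters read the same on both strands, and the core was searched on both strands. Matches of different motifs did not overlap. Among all 35116 RefSeq promoter windows of this length, GAS letters were held by 7.66%, the response element core by 3.57% and AP-1 letters by 7.71%. CISH held 4 GAS matches, 1 BCL6 window held 4 GAS matches, and the other BCL6 window held 1 AP-1 match. Windows with at least 4 GAS matches numbered 7, or 0.0199% of all, a limit chosen after the counts of these genes were seen. No match to any of the motifs lay in the windows of BATF2, BCL3 and ETV6. The sequences of CISH (chr3:50611725-50612024, minus strand), of the BCL6 window rich in GAS letters (chr3:187745419-187745718, minus strand) and of BATF2 (chr11:64990228-64990527, minus strand) are shown 5′ to 3′, since CISH and BATF2 were at the opposite ends of the IFNγ response described here. Capitals mark the GAS matches.
CISH: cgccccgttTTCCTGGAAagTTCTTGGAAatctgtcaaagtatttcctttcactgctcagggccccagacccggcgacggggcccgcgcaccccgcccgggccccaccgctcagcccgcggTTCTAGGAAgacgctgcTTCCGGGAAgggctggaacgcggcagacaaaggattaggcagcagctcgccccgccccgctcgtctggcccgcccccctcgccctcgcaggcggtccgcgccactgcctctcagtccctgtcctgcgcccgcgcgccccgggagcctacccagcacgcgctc
BCL6: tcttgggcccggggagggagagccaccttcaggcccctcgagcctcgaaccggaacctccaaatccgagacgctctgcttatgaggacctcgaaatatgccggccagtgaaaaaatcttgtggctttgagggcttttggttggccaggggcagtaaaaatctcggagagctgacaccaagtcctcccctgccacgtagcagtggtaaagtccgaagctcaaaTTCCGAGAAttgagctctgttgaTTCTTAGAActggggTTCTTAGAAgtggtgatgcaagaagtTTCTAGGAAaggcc
BATF2: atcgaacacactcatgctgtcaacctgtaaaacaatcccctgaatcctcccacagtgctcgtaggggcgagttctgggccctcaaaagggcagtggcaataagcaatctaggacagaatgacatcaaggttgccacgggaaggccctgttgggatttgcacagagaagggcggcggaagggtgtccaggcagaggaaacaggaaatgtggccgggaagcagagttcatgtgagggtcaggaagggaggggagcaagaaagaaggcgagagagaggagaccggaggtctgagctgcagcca
In CISH all 4 matches lay before the start site, the nearest ending 104 bases before it, while in BCL6 only 1 of the 4 ended before the start site and the others crossed or followed it. A match is a description of the letters, not a measured binding site.

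**Figure D1:**
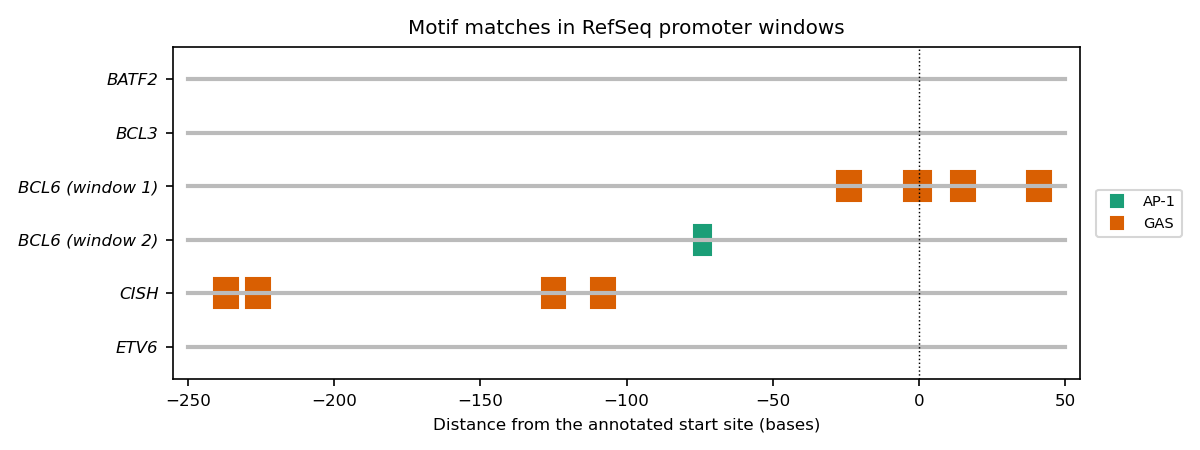
Positions of motif matches in the 6 RefSeq promoter windows, drawn as blocks on a line for each window, against the distance from the annotated start site in bases (0, dotted line). CISH and BCL6 window 1 hold 4 GAS blocks each, BCL6 window 2 holds 1 AP-1 block, and the lines of BATF2, BCL3 and ETV6 are empty.

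Without IFNγ the genes differed in level. In control cells CEBPD was highest, followed by BCL3, and the ranges of the control samples did not overlap between them or with the next gene. BCL6, BATF3, BATF2 and ETV6 came next, with neighbouring ranges that overlapped, and CISH and ETV7 were lowest. With IFNγ the order became BATF2, CEBPD, BATF3, BCL3, BCL6, ETV6, CISH and ETV7, and only the ranges of BATF3 and BCL3 overlapped between neighbours. The order of means was the same with SB-3CT+IFNγ, where no neighbours overlapped.

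The first question was how A375 cells responded to IFNγ alone. Of the 8 genes, 7 were called higher with IFNγ than in control cells, against 8.46% of all genes tested. None was called lower, against 11.0%. As the 8 genes were chosen with earlier results of these data known, these counts describe them and carry no test. CISH was not called. The same 7 had all IFNγ samples above all control samples, against 15.0% of all genes. BATF2 and BATF3 rose most, CEBPD and ETV6 about doubled their FPKM, and BCL3 and BCL6 rose less. In RNA from whole cultures, fewer responding cells and less RNA per cell cannot be told apart. Differences are on the log2(FPKM + 1) scale, from limma with Benjamini-Hochberg adjustment over all 4918 genes and a call at an adjusted p under 0.05. An exact permutation test of 3 against 3 samples cannot give a p below 0.1.

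BATF2 (chromosome 11, 64755417 to 64764490 in hg19, 3 exons) encodes a bZIP factor that pairs with JUN and IRF proteins and is known as an interferon-induced gene. Its level was 1.83, 2.50 and 2.82 FPKM in the control samples and 58.2, 50.1 and 60.0 FPKM with IFNγ. The means were 2.39 ± 0.505 and 56.1 ± 5.27 FPKM (SD, n = 3 each), a ratio of 23.5. The log2 difference was 4.08 (SE 0.13, limma adjusted p = 8.4e-06), the 6th highest of all genes tested. BATF3 (chromosome 1, 212859759 to 212873182, 3 exons) encodes a small bZIP factor best known from the development of cross-presenting dendritic cells. It was at 2.60, 2.46 and 3.09 FPKM in control cells and 16.4, 15.0 and 16.0 FPKM with IFNγ, a ratio of means of 5.81. Its log2 difference was 2.18 (SE 0.08, limma adjusted p = 1.8e-05), the 32nd highest.

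CEBPD, a gene with 1 exon on chromosome 8, encodes C/EBPδ, a bZIP factor of the acute-phase response. Control samples stood at 10, 10.5 and 17.4 FPKM and IFNγ samples at 30.0, 29.8 and 24.8 FPKM. The groups did not overlap, but the third control sample was well above the others. The ratio of means was 2.23 and the log2 difference 1.14 (SE 0.21, limma adjusted p = 0.013). The difference was 1.00 (adjusted p = 0.0501) without the first control sample, 1.03 (0.054) without the second and 1.09 (0.0504) without the first IFNγ sample.

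ETV6 (chromosome 12, 11802608 to 12048311, 8 exons) encodes an ETS-family repressor that is often rearranged in leukaemia. It was at 1.88, 1.72 and 2.07 FPKM in control cells and 4.10, 4.47 and 3.70 FPKM with IFNγ, a ratio of means of 2.17. The log2 difference was 0.82 (SE 0.09, limma adjusted p = 0.00183). Its relative ETV7 (chromosome 6, 36321868 to 36355577, 8 exons), also an ETS repressor, was near the lower end of what was measured. The first control sample was listed at 0 and the others at 0.0299 and 0.0442 FPKM, whereas IFNγ samples stood at 0.189, 0.216 and 0.203 FPKM. All IFNγ samples were higher, by 0.23 on the log2(FPKM + 1) scale (SE 0.02, limma adjusted p = 0.00184). With 0.1 in place of 1 added to FPKM, the difference was 1.3 (adjusted p = 0.00393), so its size follows the added constant.

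BCL3 (chromosome 19, 45250962 to 45263301, 9 exons) encodes an atypical IκB protein that binds the NF-κB subunits p50 and p52 in the nucleus. It was at 8.56, 7.19 and 8.44 FPKM in control cells and 16.4, 13.3 and 14.3 FPKM with IFNγ. The ratio of means was 1.82 and the log2 difference 0.79 (SE 0.10, limma adjusted p = 0.00321). BCL6 (chromosome 3, 187439165 to 187463513, 10 exons) encodes a zinc finger repressor of germinal centre B cells that also binds sites shared with STAT proteins. It was at 3.44, 3.01 and 3.01 FPKM in control cells and 5.13, 4.56 and 4.89 FPKM with IFNγ, so the groups did not overlap. The log2 difference was 0.50 (SE 0.08, limma adjusted p = 0.00729). Exons of BCL6 overlap opposite-strand genes over 171 and 316 bases. The strand of the libraries is not given in the sources used here, so reads from those stretches cannot be told apart.

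CISH (chromosome 3, 50643920 to 50649205, 3 exons) encodes a SOCS-family protein induced through STAT5 that binds cytokine receptors. Its level was 0.284, 0.251 and 0.431 FPKM in control cells and 0.511, 0.435 and 0.290 FPKM with IFNγ. These ranges overlapped, and the log2 difference of 0.09 (95% interval -0.09 to 0.28, limma adjusted p = 0.462) was not called. CISH shares 218 exonic bases with MAPKAPK3 on the opposite strand. CISH thus had the lowest log2 difference of the 8 genes and, with BCL6, the most GAS matches among the 5 genes whose promoter windows were searched, which carries no test.

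**Figure D2:**
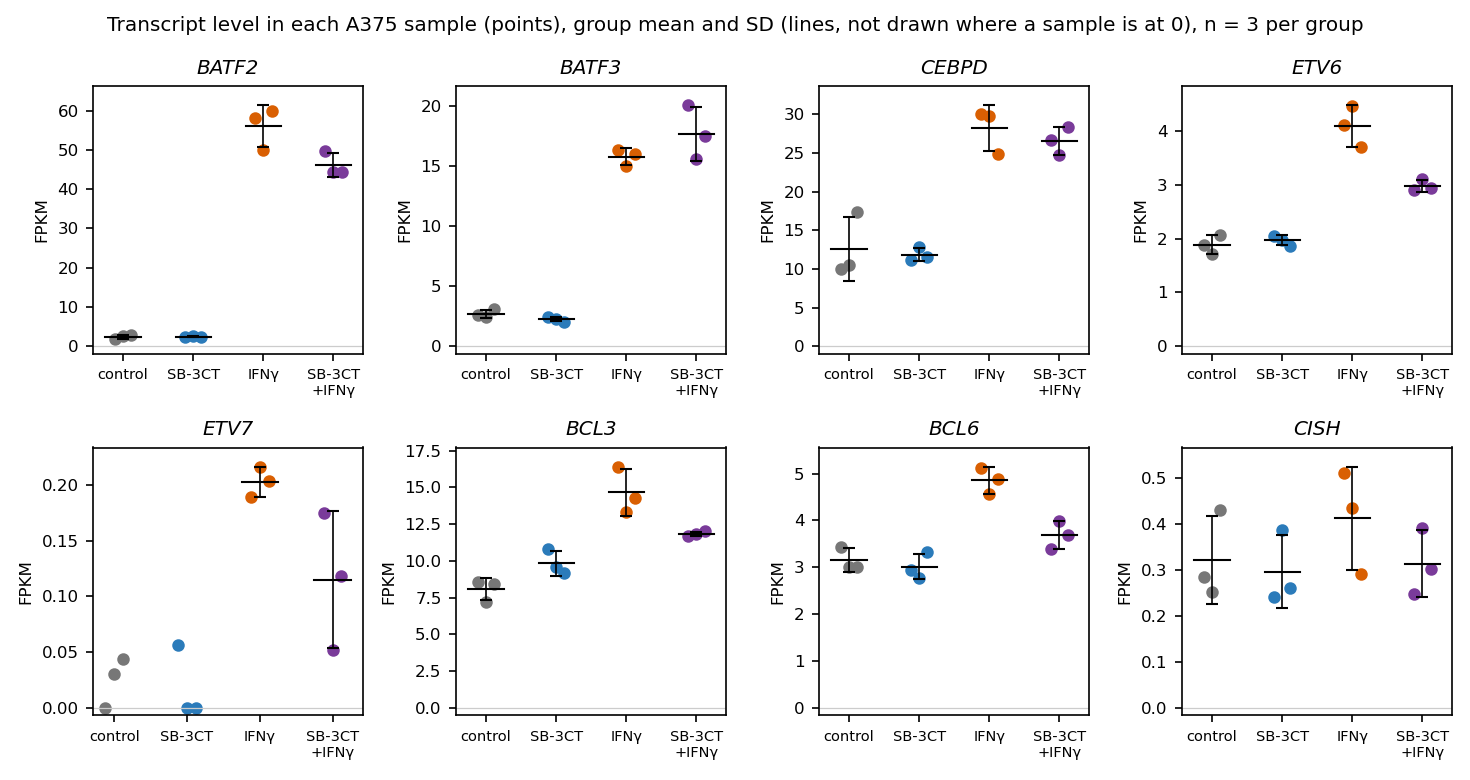
FPKM of the 8 genes in each of the 12 samples (points), with the group mean and SD of 3 samples as lines where no sample was at 0. Each panel has its own vertical axis from 0. The IFNγ samples are above all control samples for every gene except CISH.

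IFNγ given on top of SB-3CT was compared with SB-3CT alone, samples not used in the first comparison. Here 5 of 8 genes were called higher, against 7.85% of all genes tested: BATF2, BATF3, CEBPD, ETV6 and BCL3. None was called lower, against 32.7%. BCL6 and ETV7 were not called. Groups did not overlap for 6 genes, those 5 and BCL6, against 9.84% of all genes. As deposited, the median log2 difference of the 3177 genes with a mean of at least 1 FPKM was -0.21 in this comparison and -0.04 for IFNγ against control.

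BATF2 was at 2.33, 2.67 and 2.42 FPKM with SB-3CT and 49.7, 44.4 and 44.5 FPKM with both agents, a log2 difference of 3.76 (SE 0.07, limma adjusted p = 1.17e-06). BATF3 went from 2.44, 2.28 and 2.06 FPKM to 20.1, 15.6 and 17.5 FPKM, a log2 difference of 2.52 (SE 0.10, adjusted p = 3.36e-05). CEBPD was at 11.2, 12.8 and 11.5 FPKM with SB-3CT and 26.6, 24.7 and 28.3 FPKM with both, a log2 difference of 1.10 (SE 0.07, adjusted p = 0.000242). The CEBPD ratio of means was 2.24, beside 2.23 without SB-3CT. These 3 bZIP genes therefore rose with IFNγ whether or not SB-3CT was present.

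ETV6 was at 2.05, 1.98 and 1.87 FPKM with SB-3CT and 2.90, 3.11 and 2.94 FPKM with both agents. Its log2 difference was 0.43 (SE 0.06, limma adjusted p = 0.00379). BCL3 was at 10.8, 9.59 and 9.16 FPKM with SB-3CT and 11.7, 11.8 and 12 FPKM with both. Its difference was 0.24 (SE 0.06, limma adjusted p = 0.0282). Leaving out any 1 sample but the first SB-3CT sample gave BCL3 an adjusted p of 0.0668 to 0.0879. With the replicate number as a block it was 0.0801.

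BCL6 was at 2.95, 2.78 and 3.32 FPKM with SB-3CT and 3.39, 3.99 and 3.70 FPKM with both agents. The samples did not overlap, but the difference of 0.22 (95% interval 0.02 to 0.43, limma adjusted p = 0.0812) missed the threshold. Scaling samples by median ratios raised it to 0.42 (adjusted p = 0.0173), and quantile normalization also gave 0.42 (0.0115). ETV7 was listed at 0.0561, 0 and 0 FPKM with SB-3CT and stood at 0.175, 0.0517 and 0.118 FPKM with both. Its difference was 0.13 (limma adjusted p = 0.0672), and the gene was called with the replicate number as a block (0.0391), with all 12 samples in one fit (0.0186) and with robust estimation of the spread (0.047). It was 0.17 (0.0292) without the second SB-3CT+IFNγ sample, the lowest of that group, whose relative depth was 140.6% of the control mean. The SB-3CT samples listed at 0 had relative depths of 92.4% and 116.6%. CISH was at 0.241, 0.387 and 0.260 FPKM with SB-3CT and 0.247, 0.392 and 0.302 FPKM with both, with a difference of 0.02 (95% interval -0.13 to 0.17, adjusted p = 0.825).

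SB-3CT was then compared with control for its effect in the absence of IFNγ. None of the 8 genes was called by limma, against 12.2% of all genes tested in either direction (5.37% higher and 6.87% lower), and 1 of the 8, BCL3, had an unadjusted p under 0.05. BCL3 was higher in all SB-3CT samples, against 14.2% of all genes, with means of 8.06 ± 0.758 FPKM in control cells and 9.85 ± 0.856 with SB-3CT (SD, n = 3 each). Its log2 difference was 0.26 (95% interval 0.06 to 0.47, adjusted p = 0.0947). It was called at 0.28 (adjusted p = 0.0488) under median ratio scaling, at 0.31 (0.0405) under quantile normalization and, with the same difference, when only genes with a mean of at least 1 FPKM were tested (0.045). BATF3 was lower in all SB-3CT samples, against 19.7% of all genes, with a difference of -0.19 (95% interval -0.41 to 0.04, adjusted p = 0.237). The other 6 genes had differences of -0.05 to 0.05, and the widest of their intervals, that of CEBPD, ran from -0.49 to 0.39.

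**Figure D3:**
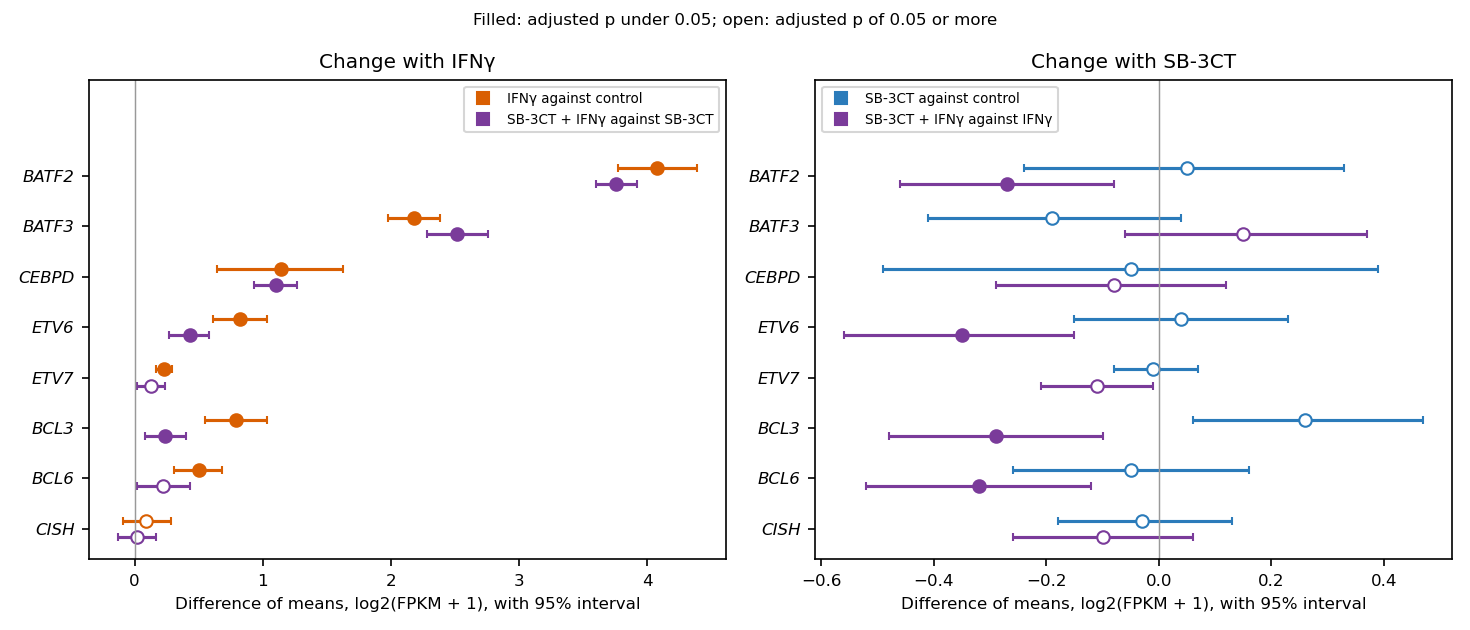
Differences of group means on the log2(FPKM + 1) scale with 95% intervals (horizontal lines), for IFNγ without and with SB-3CT (left) and for SB-3CT without and with IFNγ (right). Filled points have an adjusted p under 0.05. BATF2 and BATF3 lie farthest from 0 on the left, and on the right all control comparisons are open while BATF2, ETV6, BCL3 and BCL6 are filled and below 0 with IFNγ, calls that hold on the deposited scale alone.

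The comparison of SB-3CT+IFNγ with IFNγ asked whether the inhibitor altered these genes in stimulated cells. It shares its IFNγ samples with the first comparison. On the deposited scale, and under none of the 3 other scalings described next, 4 of 8 genes fell, BATF2, BCL3, BCL6 and ETV6, against 31.5% of all genes called lower. None was called higher, against 6.41%. For 5 genes, those 4 and ETV7, every sample with both agents lay below every IFNγ sample, against 39.6% of all genes. The members' shares are thus set against a background in which 1547 genes were called lower and 315 higher. The median difference of genes with a mean of at least 1 FPKM was -0.20.

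ETV6 differed by -0.35 (SE 0.09, limma adjusted p = 0.0174), with mean FPKM of 4.09 ± 0.381 with IFNγ and 2.98 ± 0.112 with both agents (SD, n = 3 each). BCL6 differed by -0.32 (SE 0.09, adjusted p = 0.0227), from 4.86 ± 0.287 to 3.69 ± 0.303 FPKM. BCL3 differed by -0.29 (SE 0.08, adjusted p = 0.0262), from 14.7 ± 1.59 to 11.8 ± 0.171 FPKM. BATF2 differed by -0.27 (SE 0.08, adjusted p = 0.0339), from 56.1 ± 5.27 to 46.2 ± 3.03 FPKM. All of these groups were apart, and each ratio of means lay between 0.729 and 0.823.

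None of these 4 calls held when the samples were scaled another way. Median ratio scaling, which brings the median difference of all such genes to -0.01, gave -0.18 for ETV6 (limma adjusted p = 0.177), -0.14 for BCL6 (0.193), -0.08 for BCL3 (0.358) and -0.05 for BATF2 (0.628). Quantile normalization gave -0.06 (0.67), -0.02 (0.836), -0.08 (0.347) and -0.19 (0.111) in the same order. Removing each sample's trend with transcript length, a setting added once the values were known, gave 0.03 (0.857), -0.07 (0.505), -0.22 (0.071) and -0.16 (0.156), so ETV6 changed sign. Under the first of these scalings 739 genes were called higher and 852 lower, under the second 542 and 714, and under the third 458 and 448. On the deposited scale, members called numbered 4 without the second IFNγ sample and 1 without the first or the third. They numbered 2 without the first or the second SB-3CT+IFNγ sample and 0 without the third.

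The other 4 genes were not called on the deposited scale. BATF3 differed by 0.15 (95% interval -0.06 to 0.37, limma adjusted p = 0.234), and it was higher under median ratio scaling (0.37, adjusted p = 0.0168) and quantile normalization (0.34, 0.0216) but -0.08 (0.651) with the length trend removed. CEBPD differed by -0.08 (95% interval -0.29 to 0.12, adjusted p = 0.513), with means of 28.2 ± 2.96 and 26.5 ± 1.77 FPKM, and by 0.14 and 0.04 under the median ratio and quantile scalings. CISH differed by -0.10 (95% interval -0.26 to 0.06, adjusted p = 0.298) with overlapping samples. ETV7 differed by -0.11 (adjusted p = 0.083), and by -0.15 (0.0342) without the first SB-3CT+IFNγ sample.

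**Figure D4:**
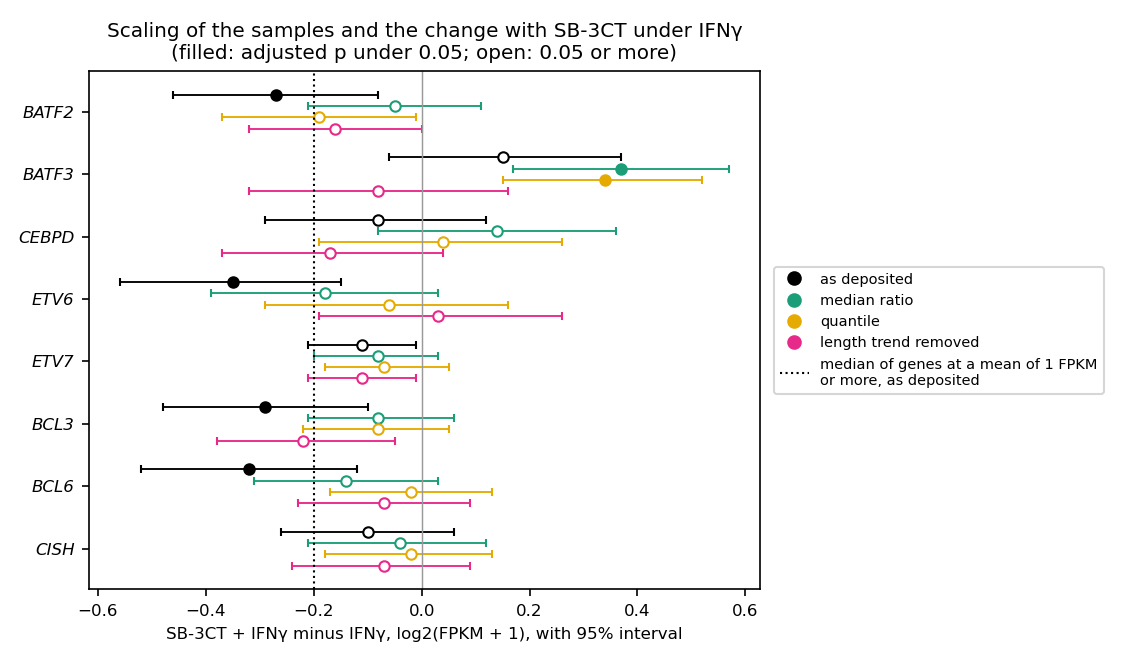
SB-3CT+IFNγ minus IFNγ for the 8 genes on the log2(FPKM + 1) scale with 95% intervals, under the deposited scale and 3 other scalings of the samples. Filled points have an adjusted p under 0.05, and the dotted line marks the median of genes with a mean of at least 1 FPKM as deposited (-0.20). The filled black points of BATF2, ETV6, BCL3 and BCL6 become open under the other scalings, and BATF3 is filled to the right of 0 under median ratio and quantile scaling.

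Whether the IFNγ response itself differed with SB-3CT was tested as an interaction over all 12 samples. The response of 2 genes, BCL3 and ETV6, was lower with SB-3CT, against 17.6% of all genes, and none was higher, against 4.74%. This balance belongs to the deposited scale, where 866 genes were lower and 233 higher. Median ratio scaling gave 283 lower and 378 higher, quantile normalization 345 and 295, and removing the length trend 176 and 237. For BCL3 the interaction was -0.55 (SE 0.12, 95% interval -0.82 to -0.28, limma adjusted p = 0.0111). Its ratio of means with IFNγ was 1.82 without SB-3CT and 1.20 with it. BCL3 was called under each of the 20 alternatives in which it was tested, with values of -0.61 to -0.36 and adjusted p of 0.00437 to 0.0297. Mean BCL3 was 9.85 FPKM with SB-3CT against 8.06 in control cells and 11.8 with both agents against 14.7 with IFNγ.

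For ETV6 the interaction was -0.39 (SE 0.11, limma adjusted p = 0.0256), with ratios of means of 2.17 without and 1.52 with SB-3CT. It was called under 11 of 20 alternatives. It was -0.23 (adjusted p = 0.192) under median ratio scaling, -0.20 (0.299) under quantile normalization and -0.08 (0.763) with the length trend removed. Leaving out 1 sample gave ETV6 an adjusted p above the threshold, at 0.0505 to 0.0681, for the first or second control sample and for the first sample of each other group, as well as for the third SB-3CT+IFNγ sample. BATF3 had an interaction of 0.34 (95% interval 0.05 to 0.63, adjusted p = 0.0887), which was called at 0.54 (0.016) and 0.42 (0.0349) under median ratio and quantile scaling, and at 0.42 (0.0467) without the second SB-3CT+IFNγ sample. BATF2 at -0.32 (adjusted p = 0.149), BCL6 at -0.27 (0.113), ETV7 at -0.10 (0.207), CISH at -0.07 (0.657) and CEBPD at -0.04 (0.941) were not called.

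Among relatives of these genes with symbols from A1BG to FAM46B, most were not called with IFNγ. No difference between them and the 8 genes was tested. Relatives later in the alphabet, such as JUN, were not analysed, so each list covers only a part of its family. Of all genes, 8.46% rose and 11.0% fell with IFNγ. Among the other 25 bZIP genes tested, 2 rose, 1 fell and 22 were not called. Their median difference was 0.06, beside -0.02 over all genes. CEBPB was not called, though its difference of 1.73 with IFNγ (limma adjusted p = 0.114) was larger than that of either riser. For SB-3CT+IFNγ against IFNγ CEBPB differed by -2.08 (adjusted p = 0.134), and for SB-3CT+IFNγ against SB-3CT by -0.87 (0.659). Differences of this size without a call go with a wide spread between samples, so they are not read as a response. ATF3, a stress-induced factor, rose by 1.55 (SE 0.06, limma adjusted p = 1.59e-05), from 4.07 ± 0.168 to 13.9 ± 0.484 FPKM (SD, n = 3 each). BACH1, a repressor of haem oxygenase, rose by 0.32, and CREB3L2, a membrane-bound factor of the secretory pathway, fell by 0.41. Of the other 17 ETS genes, 4 rose, 1 fell and 12 were not called, with a median of 0.06. ETS1 rose by 0.68 (SE 0.09, adjusted p = 0.00455), ELK1, a target of MAP kinases, by 0.67 (SE 0.05, 0.000618) and ELF1 by 0.47 (SE 0.09, 0.0139). ETV4 fell by 0.21 (SE 0.05, adjusted p = 0.0381).

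Among 7 partners and relatives of BCL3 and BCL6, 2 rose with IFNγ and 5 were not called. CYLD, a deubiquitinase that restrains NF-κB and that also acts on BCL3, rose by 0.88 (SE 0.11, limma adjusted p = 0.00326). BCOR, a corepressor bound by BCL6, rose by 0.55 (SE 0.07, adjusted p = 0.00352). Of 19 other genes of cytokine receptors and JAK-STAT signalling, 5 rose and 14 were not called. Genes with JAK, STAT or SOCS symbols come after FAM46B and were not among them, so these counts do not describe the pathway as a whole. The largest rise was that of the class II transactivator CIITA, which is also counted in the IFNγ response list below. It rose by 2.60 (SE 0.07, limma adjusted p = 3.87e-06), from 13.5 ± 0.783 to 87.3 ± 6.27 FPKM. Of 36 genes in an IFNγ response list, hand-written with earlier results of these data known, 34 rose and 2 were not called, with a median of 2.02. In the presence of SB-3CT 34 of 36 rose with IFNγ, with a median of 1.73. BATF2 and BATF3 were above the first of these medians and the other 6 genes described here were below it.

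**Figure D5:**
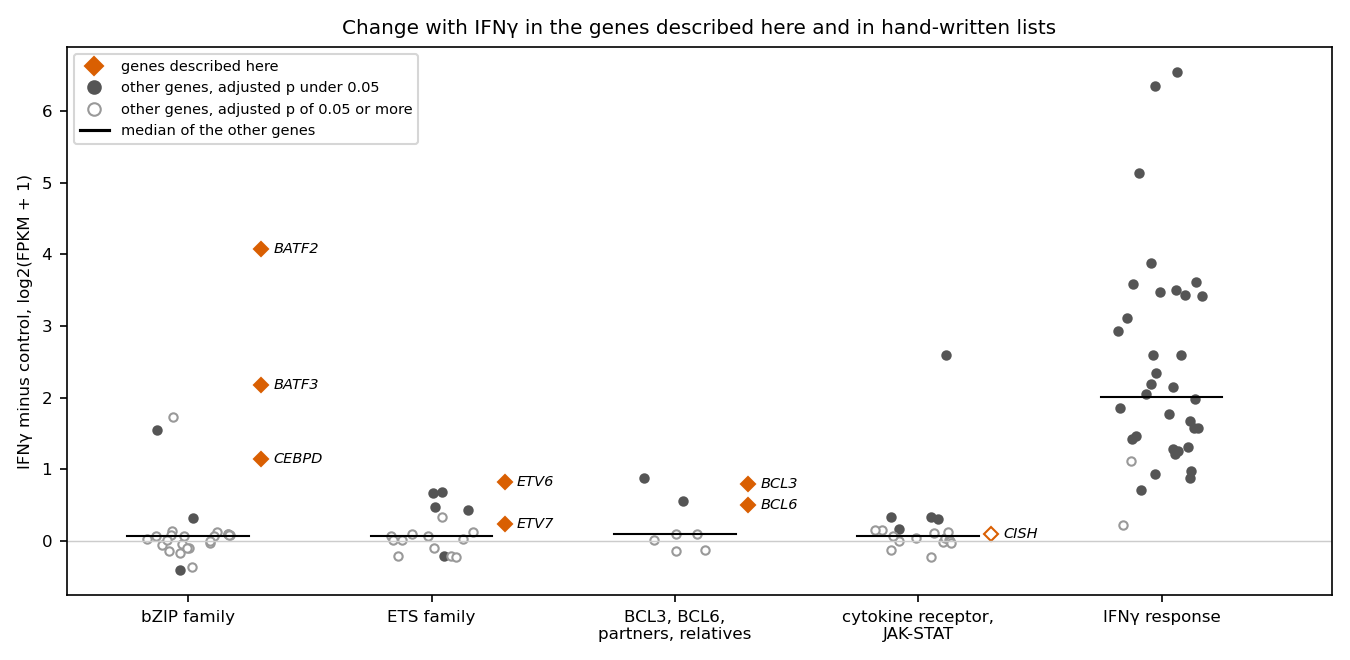
IFNγ minus control on the log2(FPKM + 1) scale for the 8 genes (diamonds) beside the other genes of 5 hand-written lists (circles), with the median of the other genes as a line. Filled symbols have an adjusted p under 0.05. The lists hold only symbols from A1BG to FAM46B. BATF2, BATF3 and CEBPD lie above the bZIP median of 0.06, ETV6 and ETV7 above the ETS median of 0.06, and CISH is the only open diamond.

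With SB-3CT alone 5 of the 25 other bZIP genes rose and 1 fell, where 5.37% of all genes rose and 6.87% fell. DDIT3, which encodes the stress factor CHOP, rose by 0.91 (SE 0.08, limma adjusted p = 0.00247), from 18.3 ± 1.27 to 35.3 ± 3.72 FPKM, and ATF3 rose by 0.79 (SE 0.07, 0.00241). Of the ETS genes 1 rose and 1 fell, of the partners and relatives 1 rose, and of the cytokine receptor and JAK-STAT genes 3 rose and 1 fell, with CLCF1, a cytokine of the interleukin-6 family, up by 0.61 (SE 0.05, adjusted p = 0.00218). In the IFNγ response list 1 of 36 rose.

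With IFNγ given on top of SB-3CT, 3 bZIP genes rose and 6 fell, no ETS gene rose and 6 fell, 1 partner rose and 1 fell, and 2 cytokine receptor and JAK-STAT genes rose and 7 fell, beside a median of -0.11 over all genes. Of all 4918 genes, 386 (7.85%) rose and 1608 (32.7%) fell in this comparison as deposited, and 650 rose and 554 fell under median ratio scaling. The list counts on the deposited scale carry that shift. For SB-3CT+IFNγ against IFNγ the counts as deposited were 3 higher and 8 lower of 25 bZIP genes, 0 and 11 of 17 ETS genes, 0 and 4 of 7 partners and relatives, 1 and 7 of 19 cytokine receptor and JAK-STAT genes, and 2 and 25 of 36 IFNγ response genes. Of all genes, 6.41% were called higher and 31.5% lower. The list medians were -0.07, -0.39, -0.31, -0.15 and -0.49, beside -0.09 over all genes. DDIT3 rose by 1.22 (SE 0.05, limma adjusted p = 0.000232) from 19.3 ± 0.250 to 46.3 ± 2.40 FPKM, while ETV1 fell by 0.82 and ELF1 by 0.77. These counts carry the downward shift of the deposited scale given above for all genes.

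The genes with the most similar pattern were sought by Pearson correlation over the 12 samples for the 6 members that reached a group mean of 1 FPKM, among 3298 genes. The 12 samples form groups with and without IFNγ, so the values describe the pattern and carry no p. BATF2 was closest to A2M and C1S, both with r = 0.999, and BST2 (0.998). BATF3 was closest to C3 (0.995), CTSS (0.995) and CXCL10 (0.994), and CEBPD to CD47 (0.960), BST2 (0.957) and CCDC71L (0.956). ETV6 was closest to ERAP1 (0.983), CTSO (0.974) and DDX60 (0.973). Their mean FPKM with both agents, like that of ETV6, lay between the unstimulated and the IFNγ levels. On the deposited scale, with its downward shift, this also held for BATF2, BCL3, BCL6, CEBPD and ETV7. ERAP1 had means of 10.7, 10.9, 34.1 and 22.0 FPKM in control, SB-3CT, IFNγ and SB-3CT+IFNγ cells. BCL6 was closest to CALCOCO2 (0.970), ABI3BP (0.963) and ADAR (0.957). BCL3 was closest to CDC42EP4 (0.960), ACSL1 (0.959) and DENND5A (0.957). CDC42EP4, with 17.7, 20.1, 28.7 and 24.7 FPKM, had the order of means of BCL3. So did ACSL1 and DENND5A, and the order was not particular to them, since ERAP1 had it as well.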

How the data were processed

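RNA was extracted with TRIzol and sequenced on standard Illumina libraries. Per the submitters' processing notes, HISAT2 2.0.5 and StringTie 1.3.3 were used with hg19, and the authors calculated FPKM. The deposited values, with a highest value of 12.16, were read as log2(FPKM + 1), and FPKM was taken back as a power of 2 less 1. Since FPKM had been assumed when the tests were designed, no further logarithm was taken. Sample columns were identified from their names, and 0 of them went unused. Groups came from the labels. The 3 + 3 samples of each comparison, or all 12 for the interaction, were fitted with limma 3.58.1 in R 4.3.3 (eBayes with trend) after the code was tested on simulated data, with no filter. The 8 genes and the lists were chosen with earlier results of these data known. Named genes are the 8 genes, the 3 nearest in pattern, and up to 3 called genes of each list with the largest change. CEBPB, not called, was added for the size of its difference. Positions and lengths are from GENCODE 44 on hg19, with a length for 4873 genes (99.1%), and promoters from RefSeq. Precision is limited by 3 samples per group and an unknown absolute depth. Alternatives were another added constant, filter, scaling, fit, block and leaving out single samples.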

Additional observations from a re-analysis of the deposited data

Results flagged for a closer look

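The change with IFNγ differed between cells without and with SB-3CT for 2 of the 8 genes, by the interaction test over 12 samples. Both were lower with SB-3CT, as were 17.6% of all genes. The interaction was -0.55 on the log2(FPKM + 1) scale for BCL3 (limma adjusted p = 0.0111) and -0.39 for ETV6 (adjusted p = 0.0256). For BCL3 the difference with IFNγ was 0.79 without and 0.24 with SB-3CT, and for ETV6 it was 0.82 and 0.43. The median interaction of genes with a mean of at least 1 FPKM was -0.19 as deposited. The part of this shift in either value was not tested beyond the scalings given, under which BCL3 was called and ETV6 was not.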

How the results depend on the processing

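Of 630 values of single genes under the alternatives, 542 kept their direction and their side of the threshold, 46 lost a call, 19 gained one and 23 changed sign. A fold rule asked for a fold over 1.5, taken from the log2(FPKM + 1) difference and not from FPKM, and an unadjusted limma p under 0.05. By this rule, genes described here that were called numbered 5 in place of 7 for IFNγ against control and 3 in place of 5 for SB-3CT+IFNγ against SB-3CT. In the latter comparison ETV6, with a ratio of mean FPKM of 1.52, was not counted. Called genes described here numbered 1 in place of 0 for SB-3CT against control with a mean of at least 1 FPKM, median ratio scaling or quantile normalization. For SB-3CT+IFNγ against IFNγ they numbered 1 with median ratio scaling, 1 with quantile normalization, 0 without the length trend and 0 by the fold rule, in place of 4. For the interaction they numbered 1 with the length trend removed and 0 with the fold rule, in place of 2. Leaving out 1 sample gave 6 to 7 for IFNγ against control, 4 to 5 for SB-3CT+IFNγ against SB-3CT, 0 for SB-3CT against control, 0 to 4 for SB-3CT+IFNγ against IFNγ and 1 to 3 for the interaction. Over all genes, the fold rule called 234 in place of 958 for IFNγ against control, 278 in place of 1994 for SB-3CT+IFNγ against SB-3CT, 49 in place of 602 for SB-3CT against control, 367 in place of 1862 for SB-3CT+IFNγ against IFNγ and 161 in place of 1099 for the interaction. Median ratio scaling called 1204 for SB-3CT+IFNγ against SB-3CT and 661 for the interaction, quantile normalization called 640 for the interaction, and removing the length trend called 1270, 906 and 413 for SB-3CT+IFNγ against SB-3CT, against IFNγ and for the interaction. With a mean of at least 1 FPKM, 907 genes were called for SB-3CT against control. Leaving out 1 sample gave 562 to 982 genes for IFNγ against control, 1507 to 1780 for SB-3CT+IFNγ against SB-3CT, 73 to 912 for SB-3CT against control, 1230 to 1977 for SB-3CT+IFNγ against IFNγ and 678 to 1450 for the interaction. The cause of these changes was not tested.

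Signs changed for BCL6 with SB-3CT against control (0.04 under quantile normalization), for CEBPD with SB-3CT+IFNγ against IFNγ (0.14 under median ratio and 0.04 under quantile scaling) and in the interaction (0.16 and 0.05), and with the length trend removed for BATF3 (-0.08) and ETV6 (0.03) with SB-3CT+IFNγ against IFNγ. Leaving out 1 sample, SB-3CT against control ran from -0.08 to 0.14 for BATF2, -0.18 to 0.19 for CEBPD, -0.08 to 0.03 for CISH, 0 to 0.08 for ETV6 and -0.03 to 0.01 for ETV7, CISH ran from -0.02 to 0.07 for SB-3CT+IFNγ against SB-3CT, and the CEBPD interaction from -0.27 to 0.10. None of these values was called. With the bases before the start site only, motif matches numbered 6 in place of 9.

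Samples with the same replicate number did not deviate together (correlations of -0.39 to 0.17 over 3177 genes), and the main fits were unpaired. Deviations from means of 3 samples cannot show whether same-numbered samples shared a culture or batch, which the labels do not say. With the replicate number as a block, 7, 5, 0, 3 and 2 of the genes described here were called for IFNγ against control, SB-3CT+IFNγ against SB-3CT, SB-3CT against control, SB-3CT+IFNγ against IFNγ and the interaction, and 775, 1361, 259, 1609 and 1082 of all genes. For SB-3CT+IFNγ against SB-3CT the block lost BCL3 (adjusted p = 0.0801) and gained ETV7 (0.0391), and for SB-3CT+IFNγ against IFNγ it lost BCL6 (0.0681). Low values limit CISH and ETV7, which stayed under 1 FPKM in every sample.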
